A study of Mus musculus with 22 samples.

Results

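The experiment described here set mammary primary tumor cells that had been co-cultured with alveolar macrophages against the same kind of cells in mono-culture. It comprised 6 of the 22 RNA sequencing libraries of the series, 3 of each culture, chosen by their labels, and every gene in the count table was considered. The co-cultured cells were primary epithelial tumor cells of the MMTV-HER2 genotype that had shared wells for 7 days with primary alveolar macrophages of wildtype FVB mice, and were then recovered by flow cytometry. The mono-cultured cells had the same genotype and were kept without macrophages. Both were grown on gelled Matrigel, a basement membrane extract, in DMEM/F12 medium with horse serum, hydrocortisone, insulin, EGF, penicillin and streptomycin, so the growth factor and hormone supplements were present in either culture. The remaining libraries hold early lesion cells of the same mouse model and the macrophages themselves. They are used below only as the partner of the co-culture and as a second kind of mammary cell.

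MMTV-HER2 mice carry the receptor tyrosine kinase HER2 under a viral promoter that is active in mammary epithelium, and develop mammary tumors that can seed the lung. Alveolar macrophages are phagocytes that live in the air spaces of the lung, where they clear surfactant and debris. Signals that pass between macrophages and epithelium are known to include chemokines, TGF-beta family ligands, growth factors and lipids. As a model, these cultures put lung macrophages and mammary cells together in a dish. The sort gate, the number of animals, any pooling, and whether mono-cultured cells were also sorted are not given by the labels.

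The libraries held 20.7 to 29.3 M counts assigned to genes. The cells had the marker genes of mammary epithelium. The luminal keratin gene Krt8 stood at 976 to 1103 CPM (read counts scaled to a common library total, TMM-normalized) in co-cultured cells and at 955 to 1042 CPM in mono-cultured cells, the basal keratin gene Krt14 at 2012 to 2434 CPM and at 2145 to 2654 CPM, and the epithelial cadherin gene Cdh1 at 448 to 518 CPM and at 454 to 509 CPM. Mitochondrial genes held 2.86 to 3.52% of counts. Grip2, a neuronal scaffold gene, took 1.37 to 7.38% in co-cultured cells and 1.08 to 5.84% in mono-cultured cells. No pair of libraries within a group matched within counting noise. Endothelial, neutrophil, lymphocyte, lung epithelial and adipocyte marker lists each summed to at most 29.0 CPM in any library. Their part in the results was not tested.

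Libraries with the same replicate number deviated together. Their deviations from the group means correlated across genes at 0.461, 0.350 and 0.468 for numbers 1, 2 and 3, while libraries with different numbers gave -0.124 to -0.360. Deviations from a mean of 3 libraries cancel within a group, so positive same-number values push the others to negative values. On the same-number values the replicate numbers were taken to pair the libraries, although the labels do not say that a number marks a shared preparation. In the plot of principal components, each co-cultured library lay to the same side of the mono-cultured library of its number. The separation of the cultures along component 1 was nevertheless incomplete, as co-cultured replicate 1 stood at -0.83 and mono-cultured replicate 3 at 1.73. Each gene was therefore tested with the replicate number as a block and without it.

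**Figure D1:**
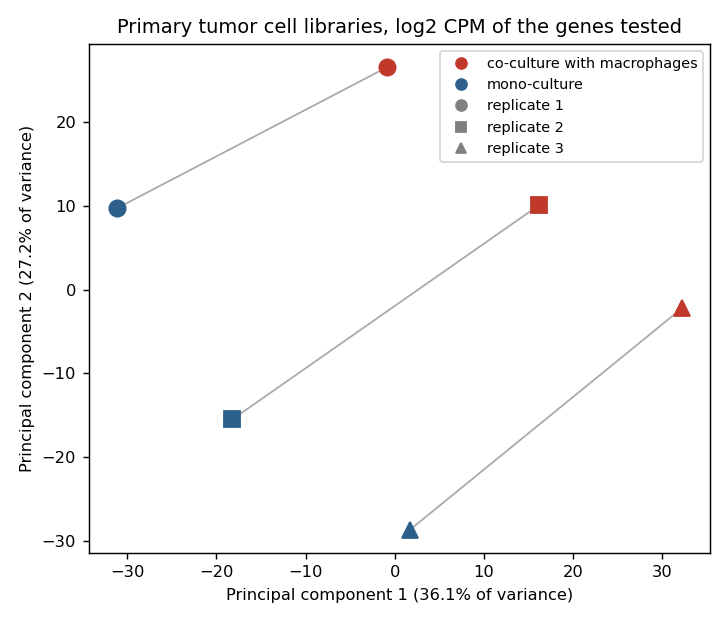
Principal components 1 (36.1% of variance) and 2 (27.2%) of log2 CPM of the genes tested. Each point is a library, red for co-culture and blue for mono-culture, with a marker shape for each replicate number and a line joining same-number libraries; all 3 lines run from mono-culture at the lower left to co-culture at the upper right.

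Without the block, 89 genes were higher (0.659% of the 13506 tested) and 136 were lower (1.01%) in co-cultured cells, at an adjusted p under 0.05 by edgeR's quasi-likelihood test. With the block the calls numbered 1430 higher (10.6%) and 1411 lower (10.4%), and they included all 225 genes called without it, each in the same direction. An unadjusted p under 0.05 was reached by 2687 genes (19.9%) without the block and by 4497 (33.3%) with it. The block therefore added 2616 genes, mostly of small change. Blocked calls had a median absolute log2 fold change of 0.302, against 0.501 for calls without the block, and 181 of the blocked calls reached 1 on the log2 scale. Residual variation between libraries was lower with the block (biological coefficient of variation 0.0594) than without it (0.123), at 2 residual degrees of freedom against 4. A DESeq2 test with the same block made 697 and 629 calls, and 1300 of the 2841 blocked edgeR calls were among them. The p-values measure the spread between these libraries, which the labels call biological replicates.

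The number of genes that passed without the block depended on single libraries. Leaving out co-cultured replicate 1, 2 or 3 left 42, 4 and 14 genes higher and 59, 0 and 12 lower. Leaving out mono-cultured replicate 1, 2 or 3 left 45, 4 and 75 higher and 56, 0 and 87 lower. Only Ly6d, Chil3 and Ccl6 were called in every one of these 6 fits. The groups of all 225 genes did not overlap, as was so for 25.6% of all genes tested. Leaving out a library could therefore hardly reverse a sign, and all 225 had the same sign in all 6 fits. With the block, leaving out pair 2 reduced the calls to 732 higher and 650 lower. All 2841 blocked calls had the same sign with each pair left out, which was likely beforehand, since the calls rest on the same pairs.

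Of the 3 genes called in every one of those fits, Ly6d was the one that is not mainly a macrophage transcript. Ly6d encodes a GPI-anchored protein of the LY6 family that marks subsets of mammary and other epithelia, and lies at chr15:74762056-74763620 (mm10). It stood at 139, 134 and 126 CPM in co-cultured cells, against 60.7, 64.7 and 70.1 CPM in mono-cultured cells. The co-cultured libraries were all above the mono-cultured ones, with a gap far wider than the spread inside either group. The log2 fold change, given here and below with its SE, was 1.03 ± 0.07 (edgeR quasi-likelihood adjusted p = 0.00233). Ceacam20, a cell adhesion gene of the carcinoembryonic antigen family at chr7:19965412-19991104, stood at 30.9, 30.3 and 31.3 CPM in co-cultured cells, against 17, 17.8 and 17.8 CPM in mono-cultured cells. Its 6 values formed 2 tight groups, and the change was 0.81 ± 0.07 (adjusted p = 0.00403). Wfdc18, a secreted whey acidic protein family member expressed in mammary gland, stood at 73.4, 82.6 and 71.1 CPM in co-cultured cells, against 43, 42.3 and 35.8 CPM in mono-cultured cells, again without overlap (0.91 ± 0.09, adjusted p = 0.00863).

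Trf encodes transferrin, the iron carrier that mammary epithelium also secretes into milk, and ranked 3 among all genes by mean CPM. It stood at 18337, 17587 and 17459 CPM in co-cultured cells, against 11479, 9354 and 9261 CPM in mono-cultured cells. Co-cultured libraries were again all higher, and mono-cultured replicate 1 lay above the other two of its group (0.83 ± 0.10, adjusted p = 0.0149). Fth1, the heavy chain of the iron storage protein ferritin, stood at 3954, 3778 and 4453 CPM in co-cultured cells, against 2903, 2624 and 3103 CPM in mono-cultured cells, with no overlap (0.50 ± 0.09, adjusted p = 0.0408). Ftl1, the ferritin light chain, went the other way and fell in the blocked fit (with the block -0.21 ± 0.06, adjusted p = 0.0146; chosen after its values were seen). The lipid carrier Apoe had 73.7, 66.7 and 95.8 CPM in co-cultured cells, against 26.8, 23.3 and 28.8 CPM in mono-cultured cells. Each co-cultured library was more than 2 times as high as any mono-cultured one, and co-cultured replicate 3 was the highest (1.58 ± 0.15, adjusted p = 0.00969). Apoc1, an apolipoprotein gene next to Apoe on chromosome 7, was at 16.6, 30.8 and 15.8 CPM in co-cultured cells, against 8.73, 17.3 and 8.71 CPM in mono-cultured cells. Both libraries of number 2 were high, so the groups overlapped, and it rose only with the block (0.87 ± 0.08, adjusted p = 1.48e-06).

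The neutrophil chemokine Cxcl1 had 23.6, 19.7 and 15.5 CPM in co-cultured cells, against 7.26, 8.02 and 8.82 CPM in mono-cultured cells. All co-cultured values exceeded the mono-cultured ones, with co-cultured replicate 1 the highest (1.29 ± 0.16, adjusted p = 0.0165). Zc3h12a encodes an RNase that degrades cytokine mRNAs, and had 18, 13.6 and 14.8 CPM in co-cultured cells, against 8.87, 8.27 and 8.6 CPM in mono-cultured cells (0.85 ± 0.12, adjusted p = 0.0228). Pgf, a placental growth factor of the VEGF family, had 184, 201 and 234 CPM in co-cultured cells, against 106, 113 and 138 CPM in mono-cultured cells. Within both groups Pgf was highest in replicate 3, and the groups did not overlap (0.79 ± 0.12, adjusted p = 0.0356). Prelp, a leucine-rich proteoglycan of connective tissue and basement membranes, changed by 0.97 ± 0.12 and Aldh1a3, an enzyme that makes retinoic acid, by 0.93 ± 0.12. Dll1, a ligand of Notch receptors that mammary stem cells present to macrophages in mouse, changed by 0.47 ± 0.09 (adjusted p = 0.0418). The matrix protein gene Olfml2a (1.29 ± 0.23), the N-myc downstream regulated gene Ndrg2 (1.06 ± 0.19) and the exchange factor gene Arhgef10 (0.90 ± 0.14) rose as well, together with Pcdhga8 (1.69 ± 0.25), whose exons are shared with neighbouring protocadherin genes.

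**Figure D2:**
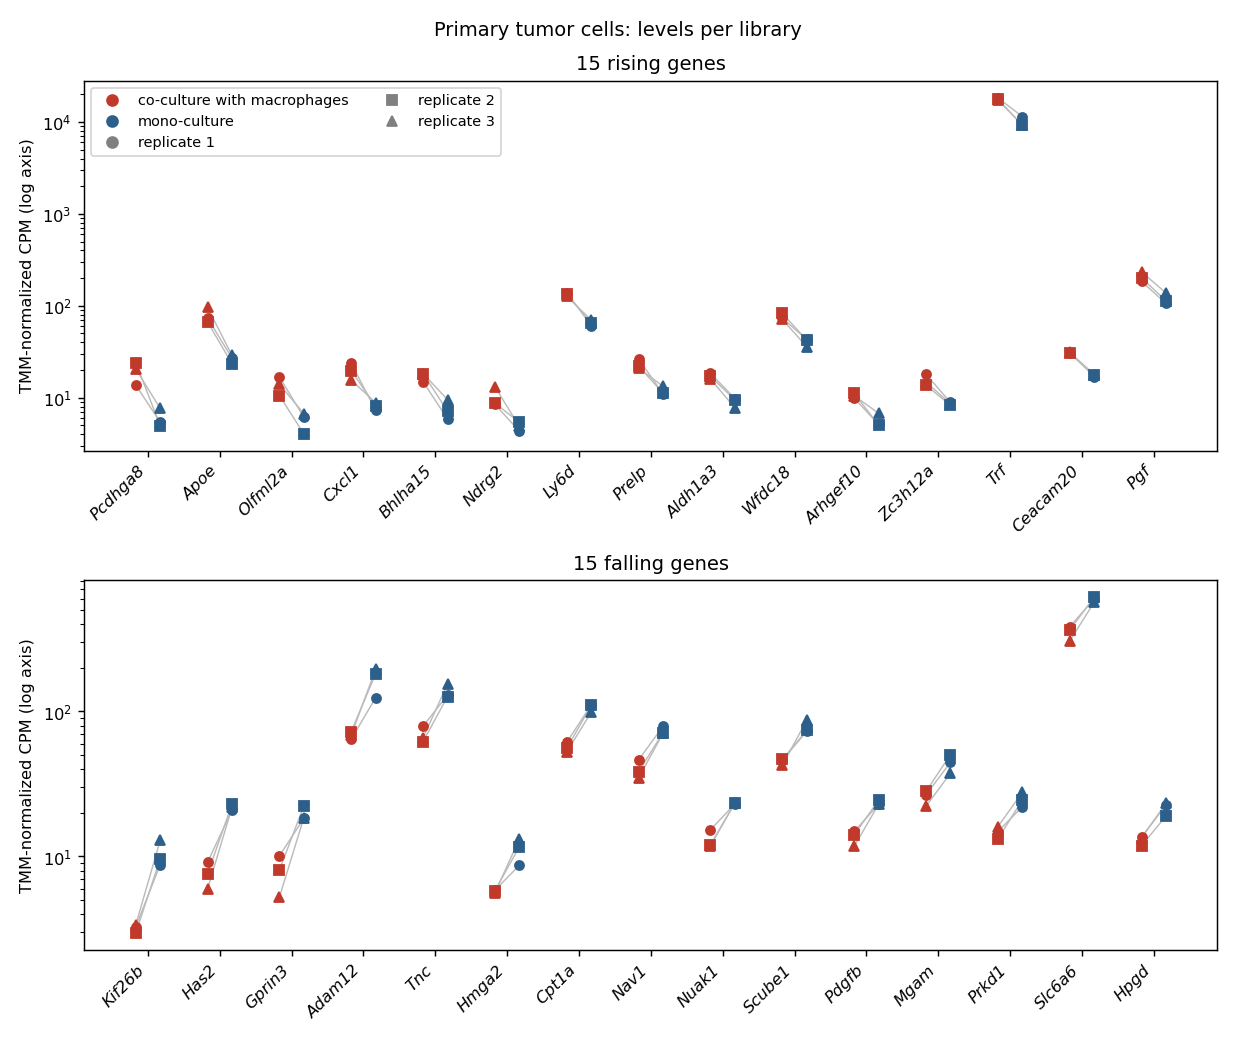
TMM-normalized CPM on a log axis for the 15 rising (top) and 15 falling (bottom) named genes in each library. Red is co-culture and blue mono-culture, marker shapes give the replicate number and grey lines join same-number libraries. In every gene shown the 3 red points lie on 1 side of the 3 blue points, because this was a condition of the choice. Of all genes tested, 25.6% met that condition.

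Txnip, an arrestin family gene that binds thioredoxin and limits glucose uptake, had 226, 223 and 206 CPM in co-cultured cells, against 111, 129 and 123 CPM in mono-cultured cells. The groups were well apart (0.85 ± 0.07, adjusted p = 0.00403). Txnip and Fth1 are also abundant in macrophages. Their level in the macrophages sorted from the same wells was 5.48 and 12 times that of the co-cultured tumor cells after joint TMM normalization, and 0.929 and 2.04 times on plain CPM. In those macrophage libraries 74.9 to 78.6% of counts were mitochondrial, which lowers the plain CPM of every other gene there. At a joint ratio of at least 5, which is called macrophage-high here, 13 of the genes called higher and 12 of those called lower qualified, as did 941 (6.97%) of all genes tested. On plain CPM 245 genes (1.81%) reach that ratio.

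Among the genes that fell, Cpt1a, which commits fatty acids to oxidation in mitochondria, lies at chr19:3322334-3385733 and stood at 61.3, 55.6 and 52.6 CPM in co-cultured cells, against 111, 110.1 and 98.8 CPM in mono-cultured cells. The highest co-cultured value was far below the lowest mono-cultured value (-0.91 ± 0.08, adjusted p = 0.00403). Plin2, a coat protein of lipid droplets, fell with 330.0, 362 and 328 CPM in co-cultured cells, against 445, 469.6 and 417 CPM in mono-cultured cells (-0.38 ± 0.07, adjusted p = 0.0387). It too is macrophage-high by joint TMM normalization, at 6.40 times, against 1.08 times on plain CPM. Abca1, an exporter of cholesterol, fell by 0.36 ± 0.06 on the log2 scale (adjusted p = 0.0393). The taurine transporter Slc6a6 stood at 384, 364 and 306 CPM in co-cultured cells, against 594, 613 and 565 CPM in mono-cultured cells, with co-cultured replicate 3 the lowest of all (-0.75 ± 0.09, adjusted p = 0.0137). The angiopoietin-like gene Angptl4, an inhibitor of lipoprotein lipase, had 58.3, 33.4 and 24.3 CPM in co-cultured cells, against 90.4, 56.6 and 40.6 CPM in mono-cultured cells. Its groups overlapped because both libraries of number 1 were high, but it was lower in each pair and fell with the block (-0.71 ± 0.06, adjusted p = 3.7e-07).

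Has2, which makes hyaluronan, had 9.12, 7.59 and 5.99 CPM in co-cultured cells, against 20.9, 22.9 and 21.8 CPM in mono-cultured cells (-1.53 ± 0.14, adjusted p = 0.00852). Mono-cultured libraries were close to each other, and the co-cultured ones all lay below them. Nav1, the microtubule-associated protein neuron navigator 1, had 46.4, 38.4 and 34.8 CPM in co-cultured cells, against 79, 71.5 and 70.8 CPM in mono-cultured cells, without overlap (-0.88 ± 0.11, adjusted p = 0.0160). Nuak1, an AMPK-related kinase, had 15.3, 12 and 11.8 CPM in co-cultured cells, against 23, 23.4 and 23.3 CPM in mono-cultured cells (-0.83 ± 0.11, adjusted p = 0.0180). The secreted and membrane-bound EGF-domain protein gene Scube1 had 46.3, 46.7 and 42.5 CPM in co-cultured cells, against 72.9, 73.9 and 86.9 CPM in mono-cultured cells, and its groups stood well apart (-0.79 ± 0.08, adjusted p = 0.00903). Pdgfb, a growth factor for mesenchymal cells, changed by -0.79 ± 0.10 and the protein kinase D gene Prkd1 by -0.75 ± 0.11. Hpgd, which inactivates prostaglandins, changed by -0.74 ± 0.11, the starch-digesting enzyme gene Mgam by -0.78 ± 0.13, and the stress gene Trp53inp1 by -0.67 ± 0.07. The secreted guidance factor Sema3c fell with 53.8, 53.4 and 52.1 CPM in co-cultured cells, against 82.9, 87.6 and 74.1 CPM in mono-cultured cells (-0.62 ± 0.07, adjusted p = 0.0128), and the semaphorin receptor Plxna1 by 0.37 ± 0.06 on the log2 scale. Adam12 (-1.29 ± 0.17), Tnc (-0.99 ± 0.11), Kif26b (-1.70 ± 0.17), Gprin3 (-1.33 ± 0.22) and Hmga2 (-0.96 ± 0.16) fell as well.

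Of the 60 genes named in the text that were called without the block, 56 lost the call without co-cultured replicate 2, 56 without mono-cultured replicate 2 and 16 without mono-cultured replicate 3. Over the fits that leave out a library, adjusted p ranged between 0.0135 and 0.0537 for Ceacam20, 0.0100 and 0.0578 for Cpt1a, 0.00559 and 0.0950 for Trf, 0.00806 and 0.0738 for Apoe and 0.0100 and 0.0689 for Has2. Adam19, Arhgef10, Dll1, Fzd6, Has2, Hmga2, Kif26b, Matn2, Nav1, Pcdhga8, Pfkp, Plxna1, Prelp, Slc6a6, Sox4, Tap2, Tnc, Tpi1, Trf and Txnip share exon bases with another annotated gene, as do, among genes called only with the block, Atf5, Col4a1, Col4a2, Ctnnb1, Elf3, Erbb2, Fn1, Hk1, Hsp90b1, Id4, Itgav, Loxl2, Manf, Notch1, Notch2, Nrarp, Nusap1, Parp14, Plet1, Psmb8, Psmb9, Slc6a9, Smurf2, Tgfbr3, Timp3, Usp18 and Vcam1. Their values are uncertain, since no source used here says whether reads were counted by strand.

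Cell-cycle genes moved together within pairs. Here and for the lists below, counts are to be read beside the shares over all genes tested. These were 10.6% higher and 10.4% lower with the block, 0.659% and 1.01% without it, and 50.9% above 0. Of 25 G2/M and mitosis genes tested, 0 passed without the block, where DESeq2 called 3 higher, and 21 were higher and 0 lower with it. The median log2 fold change was 0.35, beside 0.0046 over all genes tested, all 25 lay above 0, and 24 were higher in all 3 pairs, as were 26.3% of all genes tested. The mitotic kinase gene Cdk1 had 51, 71.1 and 78.9 CPM in co-cultured cells, against 37, 48.8 and 52.4 CPM in mono-cultured cells. Its groups did not separate fully, but each co-cultured library was above its own partner (0.53 ± 0.06 with the block, adjusted p = 5.41e-06). The spindle kinase gene Aurkb (0.60 ± 0.07), the spindle protein gene Nusap1 (0.56 ± 0.06) and the kinesin gene Kif11 (0.46 ± 0.06) rose likewise. Mki67, a widely used proliferation marker, had 102, 117 and 112 CPM in co-cultured cells, against 50.5, 72.3 and 109 CPM in mono-cultured cells. It passed in neither fit (adjusted p = 0.379 without the block and 0.338 with it), and the libraries of number 3 held nearly the same value.

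Genes of G1/S and DNA replication moved likewise, with 0 of 26 called without the block, 19 higher and 0 lower with it, and a median of 0.33. The helicase subunit gene Mcm6 had 91.2, 115 and 124 CPM in co-cultured cells, against 60.7, 84.3 and 90.4 CPM in mono-cultured cells, with the lowest co-cultured value just above the highest mono-cultured one (with the block 0.50 ± 0.05, adjusted p = 3.74e-06). Mcm3 (0.46 ± 0.06), the ribonucleotide reductase gene Rrm2 (0.50 ± 0.06) and the transcription factor gene E2f1 (0.61 ± 0.08) also rose with the block. Promoters of both groups hold motifs known for cell-cycle control, and 1 is shown for each because these members moved together. In the 250 bases before the annotated start (RefSeq, GRCm38.p6), the E2F motif TTTNGCGC, read on both strands, occurred in 4 of 24 windows of the replication genes (16.7%; 20 of 26 genes had a window) and in 1.13% of all 32851 windows. The CHR motif TTTGAA occurred in 8 of 21 windows of the G2/M genes (38.1%; 20 of 25 genes) and in 16% of all. Capitals mark the motif matches, a match is a description and not a shown binding site, and the sequences run 5′ to 3′ on the gene's strand.
Mcm6 promoter (GRCm38.p6, chr1:128359783-128359840, minus strand): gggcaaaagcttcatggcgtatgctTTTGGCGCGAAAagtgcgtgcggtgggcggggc
Cdk1 promoter (GRCm38.p6, chr10:69352913-69353008, minus strand): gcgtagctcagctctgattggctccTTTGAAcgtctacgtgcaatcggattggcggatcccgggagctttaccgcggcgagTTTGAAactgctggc

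Glycolysis and hypoxia-response genes moved together too. Of 32 tested, 2 were higher without the block and 21 with it, and 0 were lower in either fit. All 32 lay above 0, with a median of 0.38, and 28 were higher in all 3 pairs (26.3% of all genes tested were). Tpi1, the glycolytic triosephosphate isomerase, had 766, 849 and 1007 CPM in co-cultured cells, against 570.4, 592 and 639 CPM in mono-cultured cells (0.54 ± 0.10, adjusted p = 0.0461), and Pfkp, a phosphofructokinase, changed by 0.53 ± 0.08. Each overlaps a gene on the other strand, Spsb2 for Tpi1 and Pitrm1 for Pfkp. Hexokinase Hk1 had 214, 219 and 259 CPM in co-cultured cells, against 152, 159 and 184 CPM in mono-cultured cells (0.48 ± 0.05 with the block, adjusted p = 1.3e-06), with the highest mono-cultured library below the lowest co-cultured one. Pfkl (0.38 ± 0.05), the collagen prolyl hydroxylase gene P4ha1 (0.46 ± 0.05) and the angiogenic factor gene Vegfa (0.51 ± 0.07) rose with the block. The HIF core motif ACGTG, on both strands, occurred in 21 of 44 windows of these genes (47.7%; 30 of 32 genes) and in 16.6% of all windows. P4ha1 is shown as a member that rose with the block, with its match in capitals, here as the reverse complement CACGT.
P4ha1 promoter (GRCm38.p6, chr10:59323255-59323295, plus strand): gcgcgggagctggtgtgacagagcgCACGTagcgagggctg

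Chaperone and secretory pathway genes had small changes upward. Of 24 unfolded protein response genes, 1 was higher without the block and 13 with it, 0 were lower, and the median was 0.16. The called gene was Bhlha15, a transcription factor of secretory cells, at 14.9, 18.3 and 18.3 CPM in co-cultured cells, against 5.85, 7.13 and 9.5 CPM in mono-cultured cells (1.19 ± 0.18, adjusted p = 0.0275). Xbp1, the transcription factor of the IRE1 branch, had 1203, 1119.9 and 1037 CPM in co-cultured cells, against 1034, 911 and 779 CPM in mono-cultured cells. The lowest co-cultured value lay just above the highest mono-cultured one (with the block 0.31 ± 0.05, adjusted p = 0.000425). The chaperone genes Hsp90b1 (0.28 ± 0.05), Sdf2l1 (0.38 ± 0.06) and Manf (0.35 ± 0.05) rose with the block.

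Stress genes of the NRF2 and amino acid response programmes were more often lower than higher with the block. Of 20 NRF2 antioxidant genes, 1 was higher and 0 lower without the block, while 2 were higher and 12 lower with it, and the median was -0.20. The subunit of glutathione synthesis Gclc had 23.9, 24.5 and 23.2 CPM in co-cultured cells, against 30.4, 28.8 and 31.6 CPM in mono-cultured cells, with no overlap (with the block -0.34 ± 0.07, adjusted p = 0.00192). The peroxiredoxin gene Prdx1 (-0.28 ± 0.05), the glutathione transferase gene Gsta4 (-0.34 ± 0.06) and the cystine transporter gene Slc7a11 (-0.67 ± 0.12) fell with the block. The iron storage gene Fth1, described above, is the member that rose in both fits. Of 24 integrated stress response and amino acid genes, 1 was higher and 0 lower without the block and 2 were higher and 9 lower with it (median -0.07). The transcription factor gene Atf5 had 93.1, 104 and 116 CPM in co-cultured cells, against 124, 150.2 and 141 CPM in mono-cultured cells, without overlap (with the block -0.41 ± 0.05, adjusted p = 3.82e-05). The glutathione-degrading enzyme gene Chac1 fell with the block as well (adjusted p = 0.000255), with 2.13, 2.67 and 3.16 CPM in co-cultured cells, against 4.53, 5.63 and 5.72 CPM in mono-cultured cells, and so did the glycine transporter gene Slc6a9 (-0.71 ± 0.12). The 2 that rose are the lipoprotein receptor gene Vldlr (0.59 ± 0.07, adjusted p = 0.0160 without the block) and the amino acid transporter subunit gene Slc3a2 (0.26 ± 0.05 with it).

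**Figure D3:**
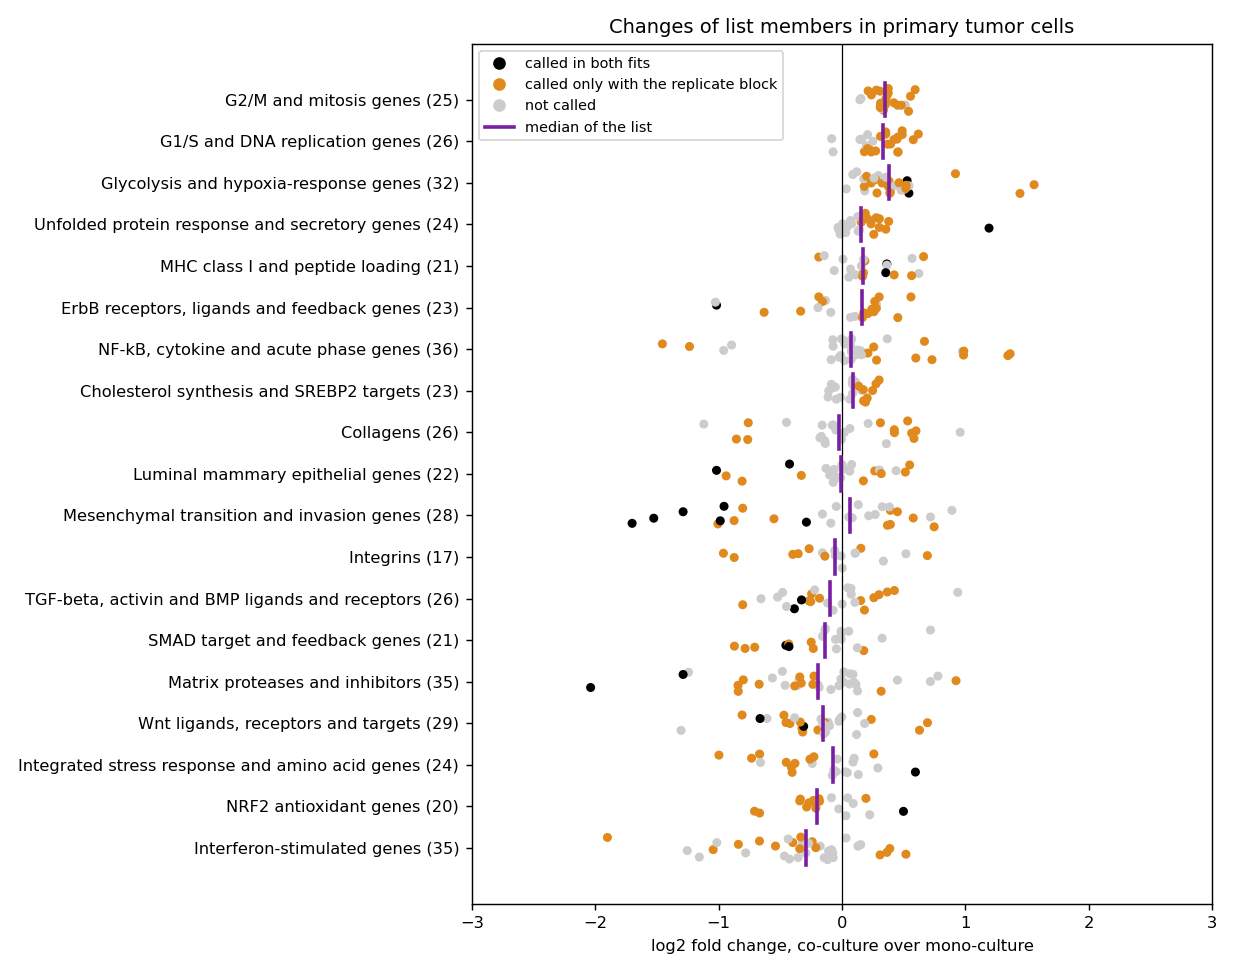
Log2 fold changes (co-culture over mono-culture, without the block) of the tested members of 19 gene lists, with the number of members in brackets. Black points passed in both fits, orange points only with the replicate block and grey points in neither, and purple bars are list medians; the highest median is 0.38 for glycolysis and the lowest -0.29 for interferon genes.

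The receptor of the model, Erbb2, had 5510.4, 5854 and 4588 CPM in co-cultured cells, against 4572, 4756 and 4012 CPM in mono-cultured cells. Its groups overlapped, each co-cultured library was above its partner, and it passed only with the block (0.25 ± 0.06, adjusted p = 0.00407, against 0.234 without it). Reads of the transgene and of the mouse gene cannot be told apart in these counts. Of 23 ErbB receptor, ligand and feedback genes, 0 were higher and 1 lower without the block, and 11 were higher and 5 lower with it (median 0.17). Feedback genes that ERK signalling is known to induce were among both the risers and the fallers. The ERK phosphatase gene Dusp6 had 369.6, 346 and 349.6 CPM in co-cultured cells, against 311, 274 and 316 CPM in mono-cultured cells, with no overlap (with the block 0.24 ± 0.05, adjusted p = 0.00191). The Sprouty genes Spry2 (0.27 ± 0.05) and Spry4 (0.45 ± 0.07) and the transcription factor gene Etv5 (0.28 ± 0.05) rose with the block. The feedback genes Dusp4 (-0.16 ± 0.05) and Spred1 (-0.19 ± 0.05) fell with it. The EGF receptor ligand Areg fell in both fits, at the low levels of 1.72, 1.57 and 1.7 CPM in co-cultured cells, against 2.84, 3.75 and 3.56 CPM in mono-cultured cells (-1.02 ± 0.20, adjusted p = 0.0497).

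TGF-beta family genes changed in both directions. Of 26 ligands and receptors, 0 were higher and 2 lower without the block and 6 higher and 7 lower with it (median -0.10). The BMP receptor gene Bmpr2 had 172, 176 and 172 CPM in co-cultured cells, against 218, 226 and 209 CPM in mono-cultured cells, without overlap (-0.33 ± 0.05, adjusted p = 0.0280), and the TGF-beta receptor gene Tgfbr1 fell with it (-0.39 ± 0.07). With the block the co-receptor gene Tgfbr3 (0.42 ± 0.07) and the activin subunit gene Inhbb (0.30 ± 0.05) rose, and the activin subunit gene Inhba (-0.78 ± 0.14) and the protease gene Bmp1 (-0.25 ± 0.05) fell. Of 21 SMAD target and feedback genes, 0 were higher and 2 lower without the block and 1 higher and 8 lower with it (median -0.13). The BMP-induced gene Id1 had 21.3, 18.1 and 13.8 CPM in co-cultured cells, against 32, 29.7 and 25.5 CPM in mono-cultured cells. Its groups did not overlap (with the block -0.72 ± 0.08, adjusted p = 4.53e-06), and Id4 (-0.79 ± 0.12), Id3 (-0.88 ± 0.14) and the ubiquitin ligase gene Smurf2 (-0.23 ± 0.05) fell with it. The feedback gene Smad6 held 11.7, 11.5 and 11.5 CPM in co-cultured cells, against 15.8, 15.7 and 16.1 CPM in mono-cultured cells, with very little spread inside either group (-0.46 ± 0.08, adjusted p = 0.0387).

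Wnt pathway genes lay mostly below 0. Of 29 tested, 0 were higher and 2 lower without the block and 3 higher and 11 lower with it, and 23 lay below 0 (median -0.16). Over all genes tested, 50.9% lay above 0. The receptor gene Fzd6 had 110.2, 108 and 104 CPM in co-cultured cells, against 137, 132 and 131 CPM in mono-cultured cells (-0.31 ± 0.05, adjusted p = 0.0316), and Fzd3 changed by -0.66 ± 0.10. The ligand gene Wnt5b (-0.32 ± 0.05) and the feedback gene Nkd2 (-0.43 ± 0.07) fell with the block. The secreted inhibitor Sfrp1 rose with it, at 98.3, 105 and 144 CPM in co-cultured cells, against 70.5, 62.8 and 91.1 CPM in mono-cultured cells (with the block 0.62 ± 0.06, adjusted p = 7.66e-07), and so did the co-receptor gene Lrp5 (0.24 ± 0.05). In the Notch list, 1 of 17 was higher and 1 lower without the block and 4 higher and 5 lower with it (median -0.01). There ligands and receptors each went both ways. The ligand Dll1, the feedback gene Nrarp (0.47 ± 0.05) and the receptor gene Notch3 (0.19 ± 0.05) rose with the block. The ligand gene Jag1 (-0.50 ± 0.11) and the receptor genes Notch1 (-0.21 ± 0.05) and Notch2 (-0.26 ± 0.05) fell with it.

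Of 17 integrin genes, 0 passed without the block and 2 were higher and 6 lower with it (median -0.05). The integrin beta 3 gene Itgb3 had 179.6, 145 and 72.9 CPM in co-cultured cells, against 344, 255 and 130.4 CPM in mono-cultured cells. Both cultures varied more than 2 times over the replicate numbers, so the groups overlapped, while each co-cultured library held close to the same fraction of its partner (with the block -0.86 ± 0.05, adjusted p = 4.28e-09, against 0.409 without the block). Itgav, which pairs with it (-0.40 ± 0.05), Itgb8 (-0.36 ± 0.05) and the collagen receptor gene Itga2 (-0.96 ± 0.16) fell with the block. Of 35 matrix protease and inhibitor genes, 0 were higher and 2 lower without the block and 2 higher and 11 lower with it (median -0.20, and -0.09 without macrophage-high genes). The weakly expressed metalloprotease gene Adam19 had 0.757, 0.811 and 0.624 CPM in co-cultured cells, against 2.16, 3.68 and 3.2 CPM in mono-cultured cells (-2.04 ± 0.28, adjusted p = 0.0209), and the inhibitors Timp1 (-0.33 ± 0.06) and Timp3 (-0.34 ± 0.05) fell with the block. The membrane metalloprotease genes Mmp15 (0.32 ± 0.06) and Mmp16 (0.92 ± 0.18) were the 2 that rose.

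Of 26 collagen genes, 0 passed without the block and 7 were higher and 3 lower with it (median -0.03, and 0.18 in pair 1). The basement membrane collagen Col4a2 had 109, 137 and 121 CPM in co-cultured cells, against 68.2, 88.3 and 88.6 CPM in mono-cultured cells, and Col4a1, which shares its promoter region, rose with it (0.59 ± 0.05 and 0.53 ± 0.07 with the block). The cartilage-type collagens Col11a1 (0.60 ± 0.05) and Col9a1 (0.43 ± 0.05) rose too. Among 35 matrix glycoprotein and proteoglycan genes, 2 were higher and 1 lower without the block and 7 higher and 7 lower with it (median -0.01). The filament-forming adaptor Matn2 rose with 71.6, 71.9 and 65.3 CPM in co-cultured cells, against 48.2, 52.8 and 45.9 CPM in mono-cultured cells (0.51 ± 0.07, adjusted p = 0.0228), and the proteoglycan versican, Vcan, fell with 30.2, 25.2 and 27.8 CPM in co-cultured cells, against 51.4, 40.2 and 46.6 CPM in mono-cultured cells (-0.73 ± 0.11, adjusted p = 0.0237). Periostin, Postn, had 293, 129 and 144 CPM in co-cultured cells, against 134, 57.2 and 53.5 CPM in mono-cultured cells. Replicate 1 was highest in both cultures, so the groups overlapped, but each co-cultured library was more than 2 times its partner (1.24 ± 0.06 with the block, adjusted p = 1.96e-09). The matrix genes Mgp (0.92 ± 0.07), Sparc (0.50 ± 0.05) and Fbln2 (0.35 ± 0.05) rose with the block. Fibroblast markers moved little as a list, with 2 of 11 tested higher (Pdpn and Postn) and 1 lower (Pdgfrb) with the block, and a median of -0.04. They summed to 506 to 704 plain CPM, not TMM-normalized, in co-cultured cells and 352 to 567 plain CPM in mono-cultured cells, of 18 listed genes. Their part in the matrix results was not tested, and in bulk libraries fewer cells of a type and less RNA per cell cannot be told apart.

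Genes linked to mesenchymal transition did not move as one. Of 28 tested, 0 were higher and 6 lower without the block and 6 higher and 10 lower with it (median 0.07). Without macrophage-high genes the median over the 22 then tested was -0.13, with 9 above 0. The fallers in both fits were Kif26b, Has2, Adam12, Tnc, Hmga2 and the transcription factor gene Sox4 (-0.29 ± 0.05). With the block the neural cadherin gene Cdh2 (-0.56 ± 0.08) fell and fibronectin, Fn1, rose with 771, 786 and 828 CPM in co-cultured cells, against 499.8, 666 and 654 CPM in mono-cultured cells (with the block 0.40 ± 0.07, adjusted p = 0.00139). The crosslinking enzyme gene Loxl2 rose with it (0.78 ± 0.11).

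Epithelial identity genes were mixed. Of 22 luminal genes, 0 were higher and 2 lower without the block and 5 were higher and 5 lower with it (median -0.01). The luminal surface protein gene Cd24a had 575, 563 and 537 CPM in co-cultured cells, against 759, 777 and 714 CPM in mono-cultured cells, with no overlap (-0.43 ± 0.06, adjusted p = 0.0204). The adhesion gene Epcam (0.27 ± 0.05), Krt19 (0.57 ± 0.05), the progenitor receptor gene Kit (0.50 ± 0.07) and the transcription factor gene Elf3 (0.32 ± 0.07) rose with the block. Of 18 milk and secretory genes, 1 was higher and 1 lower without the block, Bhlha15 and Plin2, and 4 were higher and 4 lower with it (median -0.09). The iron-binding milk protein gene Ltf had 92.4, 94 and 46.9 CPM in co-cultured cells, against 37.1, 51.2 and 28.9 CPM in mono-cultured cells (0.97 ± 0.12 with the block, adjusted p = 0.00426). The abundant casein gene Csn1s1 (0.77 ± 0.12; means of 2724 CPM in co-cultured and 1674 CPM in mono-cultured cells) and Mfge8 (0.16 ± 0.05) rose with the block too. The milk protein gene Wap (-0.51 ± 0.13), the milk fat gene Btn1a1 (-0.95 ± 0.13) and the lipase gene Cel (-1.16 ± 0.17) fell with it. These fallers were weakly expressed, with group means of 2.84 to 8.87 CPM. Of 33 epithelial junction genes 0 passed without the block and 2 were higher and 5 lower with it, among them Ctnnb1 (-0.19 ± 0.05) and Cldn1 (0.23 ± 0.06). These junction counts are not far from the 10.6% higher and 10.4% lower of all genes tested. Of 16 basal and myoepithelial genes 0 passed without it and 3 were higher and 4 lower with it. The 3 higher were Krt5 (0.50 ± 0.05), Trp63 (0.20 ± 0.06) and Lgals7 (0.33 ± 0.07). Among those lower were the desmosomal cadherin gene Dsg3 (-0.81 ± 0.08) and the smooth muscle actin gene Acta2 (-1.21 ± 0.23).

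Immune genes moved in several directions. Of 36 NF-kB, cytokine and acute phase genes, 0 passed without the block and 10 were higher and 2 lower with it (median 0.08). The acute phase gene Saa1 had 217, 158 and 58.4 CPM in co-cultured cells, against 109.8, 80.3 and 28.8 CPM in mono-cultured cells. Replicate 3 was low in both cultures, which made the groups overlap, and each co-cultured library held near 2 times the value of its partner (0.99 ± 0.05 with the block, adjusted p = 1.96e-09). Saa2 (0.97 ± 0.05), a near copy of Saa1 whose reads could be shared with it, and haptoglobin, Hp (1.38 ± 0.07), behaved alike, and the adhesion receptor gene Vcam1 fell with 5.51, 3.01 and 3.37 CPM in co-cultured cells, against 17, 7.43 and 8.49 CPM in mono-cultured cells (with the block -1.45 ± 0.13, adjusted p = 5.48e-07). Of 13 chemokine genes tested of 30 listed, 2 were higher and 0 lower without the block, Cxcl1 and Ccl6, and 5 were higher and 2 lower with it (median 0.20). The fractalkine gene Cx3cl1 had 175, 151 and 134 CPM in co-cultured cells, against 141, 115 and 105 CPM in mono-cultured cells (with the block 0.35 ± 0.05, adjusted p = 5.27e-05), the neutrophil chemokine Cxcl5 changed by 0.96 ± 0.20, and Cxcl12 fell (-0.37 ± 0.06). Ccl6 and Ccl9 of this list are macrophage-high.

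The promoter of Cxcl1, which like Ccl6 was called in both fits, holds kappaB motifs (GGG, any 3 bases, then TTCC) in its 250 upstream bases, a match found on either strand in 2 of 13 windows of the chemokine genes tested (15.4%; 10 of 13 genes), 12 of 36 windows of the inflammatory genes (33.3%; 29 of 36 genes) and 4.65% of all windows. It is shown with the matches in capitals, the overlapping ones merged.
Cxcl1 promoter (GRCm38.p6, chr5:90891131-90891209, plus strand): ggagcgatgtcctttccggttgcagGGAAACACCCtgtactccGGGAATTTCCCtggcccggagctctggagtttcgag

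Of 35 interferon-stimulated genes tested of 40 listed, 0 passed without the block and 4 were higher and 10 lower with it. The signs were mostly negative, as 28 lay below 0 with a median of -0.29. The median over the list was -0.09 and -0.07 in pairs 1 and 2 and -0.53 in pair 3. The ubiquitin-like gene Isg15 had 2.0, 1.67 and 1.87 CPM in co-cultured cells, against 2.55, 2.91 and 6.01 CPM in mono-cultured cells. The groups did not overlap, and mono-cultured replicate 3 was more than 2 times the other mono-cultured libraries (-0.97 ± 0.24 with the block, adjusted p = 0.00947). Usp18, which removes ISG15 from proteins, was low in all libraries and fell (-1.80 ± 0.45), as did Cmpk2 (-0.84 ± 0.23) and Parp14 (-0.34 ± 0.09). The ISRE motif (GAAA, any 2 bases, then GAAA), on both strands, occurred in 9 of 31 windows of the list (29.0%; 25 of 35 genes) and in 2.98% of all windows. Isg15 is shown because it has both the fall and several overlapping matches, which are in capitals.
Isg15 promoter (GRCm38.p6, chr4:156200850-156200921, minus strand): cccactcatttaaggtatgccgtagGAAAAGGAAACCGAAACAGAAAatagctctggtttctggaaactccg

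Antigen presentation genes were more often higher. Of 21 MHC class I and peptide loading genes, 2 were higher and 0 lower without the block and 8 higher and 1 lower with it (median 0.17). H2-K1, a classical class I gene, had 245, 288 and 277 CPM in co-cultured cells, against 212, 211 and 207 CPM in mono-cultured cells (0.36 ± 0.07, adjusted p = 0.0434), and the peptide transporter gene Tap2 changed by 0.35 ± 0.06. The immunoproteasome genes Psmb8 (0.42 ± 0.06) and Psmb9 (0.58 ± 0.14) and H2-M3 (0.65 ± 0.09) rose with the block. The light chain shared by all class I molecules, B2m, fell with it, at 200.1, 203 and 162 CPM in co-cultured cells, against 211, 233 and 200.0 CPM in mono-cultured cells (with the block -0.19 ± 0.05, adjusted p = 0.0117). Counts of H2 genes may be split between near-identical copies.

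**Figure D4:**
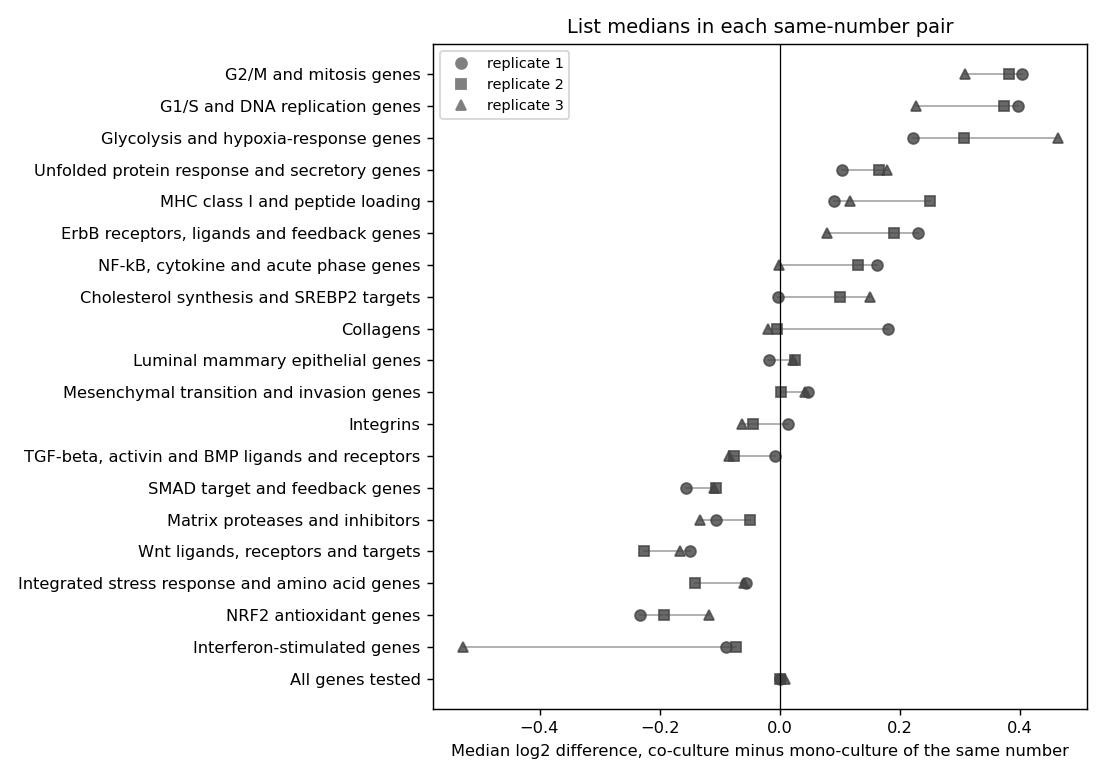
Median log2 difference, co-culture minus mono-culture of the same replicate number, over the members of each list; circles, squares and triangles are numbers 1, 2 and 3. Cell-cycle and glycolysis lists are above 0.2 in every pair, NRF2 genes lie between -0.23 and -0.12, interferon genes reach -0.53 in pair 3 only, and all genes tested stay near 0.

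Transcripts of the macrophage partner were detected at low levels in the sorted tumor cells. Chil3, a secreted chitinase-like protein of alveolar macrophages, had 187, 101 and 126 reads in the co-cultured libraries, against 1, 0 and 0 reads in the mono-cultured ones. The chemokine Ccl6 had 78, 51 and 68 reads in co-cultured cells, against 0, 0 and 1 in mono-cultured cells. Mpeg1, a pore-forming protein of phagocytes, had 27, 25 and 35 reads in co-cultured cells, against 2, 2 and 0 in mono-cultured cells, a ratio of normalized levels of 23.8 (exact 95% counting interval 8.96 to 89.2). The ratio for Chil3 was 453 (80.8 to 17900), and such intervals cover counting error only. Relative to macrophages sorted from the same wells, the co-cultured tumor cells held 0.0358% of the Chil3 level, 0.0236% of the Ccl6 level, 0.0276% of the Lyz2 level and 0.0514% of the Mpeg1 level. They held 18.3% of the Txnip level and 8.34% of the Fth1 level, all after joint TMM normalization. These shares depend on scaling. On plain CPM the macrophage level was 475 times the tumor cell level for Chil3, 720 times for Ccl6, 619 times for Lyz2 and 332 times for Mpeg1. For Txnip it was 0.929 times and for Fth1 2.04 times.

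The mannose receptor gene Mrc1 had 23, 21 and 34 reads in co-cultured cells, against 9, 14 and 8 in mono-cultured cells, without overlap, a ratio of 2.75 (1.79 to 4.32). Cybb and Laptm5 did not overlap either on normalized levels, at 7.47 to 10.4 CPM and 5.65 to 6.69 CPM in co-cultured cells and 5.57 to 6.15 CPM and 4.19 to 5.22 CPM in mono-cultured cells. Some macrophage genes had overlapping read numbers. The receptor gene Csf1r had 99, 61 and 96 reads in co-cultured cells and 88, 114 and 91 in mono-cultured cells, and the leukocyte phosphatase gene Ptprc had 51, 35 and 45 reads in co-cultured cells and 59, 64 and 42 in mono-cultured cells. Of 25 macrophage and myeloid markers, 14 passed the filter on low counts, 3 were higher and 0 lower without the block (Ccl6, Mpeg1 and Lyz2) and 6 were higher and 0 lower with it. They summed to 540 to 781 plain CPM in co-cultured cells and 446 to 653 plain CPM in mono-cultured cells, most of it Cd14, which epithelial cells also express. Fcgr1 and C1qa were at 0 in all 6 libraries. Of 15 alveolar macrophage markers 4 passed the filter, with 1 higher without the block and 2 with it. The alveolar markers summed to 410 to 478 plain CPM in co-cultured cells and 367 to 436 plain CPM in mono-cultured cells, mainly from Plet1 and Krt79. Cidec and Fabp1 were at 0 throughout. The part of carried macrophage RNA in the other results was not tested. Without the macrophage-high genes, 68 genes were called higher and 112 lower.

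**Figure D5:**
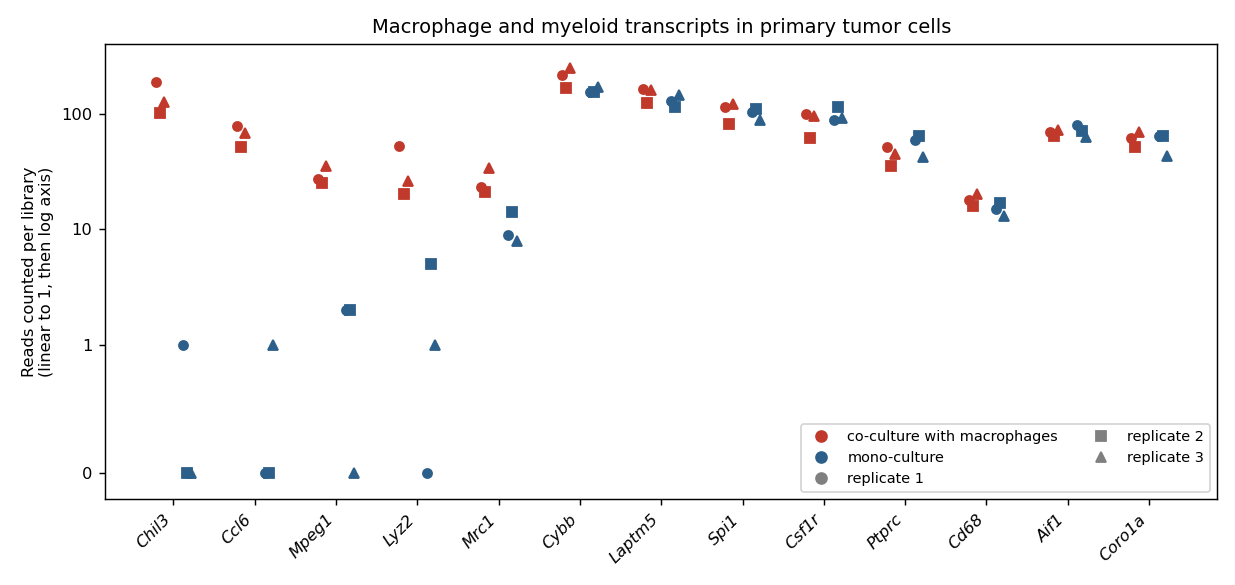
Reads counted per library for 13 macrophage and myeloid genes in the tumor cells, on an axis that is linear to 1 and logarithmic above. Red is co-culture and blue mono-culture; Chil3, Ccl6, Mpeg1 and Lyz2 separate the groups, with 0 to 5 reads in mono-cultured cells, while Csf1r, Ptprc, Cd68, Aif1 and Coro1a overlap.

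The response of primary tumor cells was compared with that of early lesion cells, the premalignant mammary cells of the same model, in an interaction test over the 12 mammary libraries. Of 15284 genes tested, 6 differed upward (0.0393%) and 15 downward (0.0981%). Cpt1a was among them. Early lesion cells had 146, 154 and 149 CPM in co-culture, against 161, 151 and 148 CPM in mono-culture, with overlapping groups, where primary tumor cells showed the fall given above. The difference of the responses was -0.88 ± 0.09 (edgeR quasi-likelihood adjusted p = 0.00490), and it passed in all 12 fits that leave out a library. Nav1 differed likewise, with 143, 151 and 144 CPM in co-culture, against 149.9, 150.4 and 146 CPM in mono-culture in early lesion cells and a difference of -0.86 ± 0.12 (adjusted p = 0.0139), passing in 12 of 12 such fits. Apoe was far lower in early lesion cells, at 6.99, 7.78 and 11 CPM in co-culture, against 10.2, 10.6 and 10.4 CPM in mono-culture, and the difference was 1.88 ± 0.24 (adjusted p = 0.0145; 10 of 12 fits). Timp3 had changes of opposite sign. In primary tumor libraries it had 115, 130.4 and 112 CPM in co-cultured cells, against 133, 168 and 152 CPM in mono-cultured cells. Early lesion cells had 148, 137 and 137 CPM in co-culture, against 101, 84.7 and 75.1 CPM in mono-culture, with no overlap in either kind of cell. Its difference was -1.04 ± 0.15 (adjusted p = 0.0272; 7 of 12 fits). The differences of Cd24a (-0.47 ± 0.07) and Dll1 (0.67 ± 0.11) passed in 4 and 3 of the 12. The number of genes that differed, 21, became 184 without co-cultured replicate 1 of the early lesion cells and 9 without mono-cultured replicate 2 of the tumor cells. The 2 kinds of mammary cells were processed as separate experiments, so cell kind and experiment cannot be told apart.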

How the data were processed

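RNA was extracted with an RNeasy kit, enriched for mRNA with oligo(dT) beads and made into libraries with the NEBNext Ultra kit, per the labels' protocols. The deposited values are raw read counts per gene symbol, per the file headers, with no normalization by the authors. The submitters' processing notes name bcl2fastq 2.17 and the mm10 build. The sources used here do not name an aligner, a counter or an annotation, or say whether reads were counted by strand. Columns were matched to samples by name, and 27 symbols that a spreadsheet had turned into dates (0.161 to 0.178% of counts) were kept under the deposited names.

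From the counts, edgeR 4.0.16 (R 4.3.3; limma 3.58.1) was run with TMM normalization, filterByExpr by group, robust dispersions and the quasi-likelihood test, co-culture over mono-culture, with and without the replicate number as a block. The Benjamini-Hochberg adjustment ran over the 13506 of 32544 symbols that passed the filter, with calls under 0.05. Replicate numbers come from the labels, and the pairing was accepted because deviations of same-numbered libraries correlated above 0.1 for each of 3 numbers. The difference of responses between tumor and early lesion cells was the interaction term of a 4-group fit. DESeq2 1.42.0, other normalization, no filter, non-robust dispersions, a joint fit of 4 groups, removal of macrophage-high genes or of mitochondrial genes and Grip2, and leaving out each library were the alternatives. The code was tested on simulated data.

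Named genes are the 15 rising and 15 falling genes of largest change called in both fits (replicates not overlapping, the higher group averaging 10 CPM or more, not macrophage-high, no provisional symbol), the 3 rising macrophage-high genes of smallest p, the 5 rising and 5 falling called genes of highest CPM, up to 4 members per list called without the block and up to 4 called only with it by smallest p, and Erbb2, Cdh1, Epcam and Mki67. Other names are cell markers, overlapping genes or list members that went against those named, chosen after their values were seen. Members and gene lists were chosen with earlier results of these data known. GENCODE M21 gave coordinates and exon overlaps, and RefSeq (GRCm38.p6) gave promoter windows. Counting intervals cover counting error only. Depth of 20.7 to 29.3 M counts per library limits genes of few reads.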

Additional observations from a re-analysis of the deposited data

Results flagged for a closer look

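For 6 of the named genes the response to co-culture in primary tumor cells differed from that in early lesion cells by the interaction term of edgeR's quasi-likelihood test, adjusted over 15284 genes. Apoe, the lipid carrier, differed by 1.88 on the log2 scale (adjusted p = 0.0145), with 66.7 to 95.8 CPM in co-cultured and 23.3 to 28.8 CPM in mono-cultured tumor cells. In the early lesion cells Apoe had 6.99 to 11 CPM in co-culture and 10.2 to 10.6 CPM in mono-culture. Cpt1a differed by -0.878 (adjusted p = 0.00490) and Nav1 by -0.857 (adjusted p = 0.0139), each lower in 3 of 3 tumor pairs and with overlapping groups in early lesion cells. Over the 12 fits that each leave out a library these differences ranged between -0.94 and -0.84 for Cpt1a and between -0.98 and -0.77 for Nav1. Timp3, an inhibitor of metalloproteases, differed by -1.04 (adjusted p = 0.0272). It was lower in 3 of 3 tumor pairs, and in early lesion cells it had 137 to 148 CPM in co-culture and 75.1 to 101 CPM in mono-culture. Cd24a differed by -0.472 (adjusted p = 0.0301) and Dll1 by 0.674 (adjusted p = 0.0485). Kind of cell and experiment cannot be told apart in these differences.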

How the results depend on the processing

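All 225 calls made without the replicate block had the same sign in each fit that left out a library, which their non-overlapping groups made nearly certain beforehand. Their number moved widely, with 4 to 75 genes higher and 0 to 87 lower when a library was left out (edgeR; the fits without replicate 2 of either culture gave the lowest counts). With no filter on low counts 192 were higher and 274 lower, with DESeq2 338 and 404, and with the replicate block 1430 and 1411. From the blocked fit, DESeq2 gave 697 higher and 629 lower, no replicate block 89 and 136, and leaving out a pair 732 to 1648 higher and 650 to 1689 lower, with the lowest without pair 2. The count of genes whose response differed from early lesion cells, 21, became 35 with no filter, 328 with DESeq2 and 1129 with the replicate block, and 9 to 184 with a library left out. The cause of these moves was not tested. RLE normalization shifted the median of all genes to 0.00488, from 0.00455, and changed no call among the 60 called genes named. Of those, the joint fit of 4 groups lost 14 and non-robust dispersions 8. Of all 225 calls, 112 were also called in the joint fit and 223 by DESeq2. Cdh1, called in neither fit, ranged between -0.0692 and 0.0505 with a library left out, and changed sign to 0.0236, 0.0383 and 0.0505 without co-cultured replicate 2, co-cultured replicate 3 and mono-cultured replicate 1. Over the fits that left out a library the list medians of G2/M genes (0.20 to 0.49), replication genes (0.18 to 0.49), glycolysis genes (0.25 to 0.48), interferon genes (-0.37 to -0.14) and NRF2 genes (-0.21 to -0.16) had the same sign. Those of the milk (-0.27 to 0.14), inflammatory (-0.03 to 0.20), Notch (-0.15 to 0.08), basal (-0.12 to 0.06), luminal (-0.02 to 0.08), matrix (-0.06 to 0.05), collagen (-0.04 to 0.03), mesenchymal (-0.0078 to 0.10) and cholesterol lists (-0.01 to 0.18) changed sign. Chemokine (0.02 to 0.48) and ErbB medians (0.05 to 0.20) moved by more than 1.5 times from their value with all libraries. So did the medians of G2/M, replication and interferon genes. Genes at few reads, such as Hgf, are limited by depth.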

Other observations

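Further gene lists gave few or mixed calls, apart from the cholesterol synthesis list, where all calls with the block were upward. Of 23 cholesterol synthesis genes, 0 passed without the block and 8 were higher and 0 lower with it, with a median log2 fold change of 0.09. The farnesyl diphosphate synthase gene Fdps (0.25 ± 0.05 with the block, adjusted p = 0.00105 by edgeR's quasi-likelihood test) and the kinase gene Pmvk (0.29 ± 0.06) were among them. Of 20 fatty acid synthesis genes, 0 passed without the block and 2 were higher with it, Elovl5 (0.25 ± 0.06) and Me1 (0.26 ± 0.07). That count is not far from the 10.6% higher of all genes tested. Of 20 lipid transport and LXR target genes, 1 was higher and 2 lower without the block and 6 higher and 4 lower with it (median 0.07). The high-density lipoprotein receptor gene Scarb1 had 87, 96.4 and 112 CPM in co-cultured cells, against 70.3, 72.4 and 80.3 CPM in mono-cultured cells (0.40 ± 0.05 with the block), and the fatty acid binding gene Fabp5 rose with it (0.49 ± 0.07).

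Among 30 FGF, PDGF, IGF, HGF and VEGF genes, 0 were higher and 2 lower without the block and 7 higher and 7 lower with it. The hepatocyte growth factor gene Hgf, whose receptor is the kinase MET, had 4, 6 and 6 reads in co-cultured cells, against 41, 55 and 22 reads in mono-cultured cells, a ratio of 0.148 (exact 95% counting interval 0.0820 to 0.251; -2.68 ± 0.48 on the log2 scale, adjusted p = 0.0393). Fibroblast growth factor 2, Fgf2, fell with the block (-0.76 ± 0.16), and its receptor gene Fgfr1 rose with it at 368, 274 and 265 CPM in co-cultured cells, against 272, 199 and 182 CPM in mono-cultured cells (0.48 ± 0.05). The growth factor binding protein gene Igfbp5, chosen after its values were seen, spanned 18193, 6858 and 5974 CPM in co-cultured cells, against 19536, 7700.4 and 6482 CPM in mono-cultured cells. Replicate 1 was the highest in either culture by more than 2 times, and its groups overlapped.

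Of 25 cell-cycle inhibitor and dormancy-linked genes, 1 was higher and 1 lower without the block and 5 higher and 5 lower with it. The inhibitor gene Cdkn1a fell with the block at 83.7, 109.8 and 146 CPM in co-cultured cells, against 112, 132 and 167 CPM in mono-cultured cells (-0.29 ± 0.05), as did the orphan receptor gene Nr2f1, at the low levels of 0.792, 0.954 and 0.915 CPM in co-cultured cells, against 2.12, 3.68 and 1.44 CPM in mono-cultured cells (-1.37 ± 0.28). Of 46 semaphorin, ephrin, netrin and slit genes, 0 were higher and 3 lower without the block and 3 higher and 6 lower with it. Of 21 YAP target genes 0 passed without the block and 3 were higher and 4 lower with it, and of 24 immediate early genes 3 were higher with it, among them Nr4a1 (0.36 ± 0.08). The blocked counts of the guidance, YAP and immediate early lists are not far from the 10.6% higher and 10.4% lower of all genes tested. Of 10 laminin chains 3 were higher and 2 lower with the block, Lamb2 (0.39 ± 0.05) being higher and Lama3 (-0.54 ± 0.11) lower. The MHC class II gene H2-Ab1, 1 of 5 such genes tested, had 1.07, 3.34 and 1.66 CPM in co-cultured cells, against 3.05, 7.58 and 7.34 CPM in mono-cultured cells, lower in each pair (-1.59 ± 0.19 with the block, adjusted p = 1.97e-05). Of 13 arginine and alternative activation genes, 2 were higher and 0 lower without the block and 4 higher and 2 lower with it. Chil3 and Mrc1 among the genes higher with the block are macrophage-high, as is Slc7a2 among those lower. Without macrophage-high genes, 1 of the 9 then tested was higher and 0 lower without the block. Arginase 1, Arg1, had 7.3, 4.44 and 5.36 CPM in co-cultured cells, against 2.3, 2.61 and 2.48 CPM in mono-cultured cells (1.21 ± 0.21, adjusted p = 0.0387).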
